A study of Macaca mulatta with 6 samples.

Results

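The genes described here are 10 regulators that work directly below the receptors for tumour necrosis factor (TNF): the ubiquitin-editing protein A20 (TNFAIP3) with its binding partners TNIP1 and TNIP2, the inhibitor of apoptosis genes BIRC2 and BIRC3, the adaptors TRAF1 and TRAF2, the kinase gene RIPK1, the caspase-like inhibitor CFLAR, and the TNF-induced gene TNFAIP2. They were chosen by symbol, with earlier results of these data known. All 10 were found among the 24932 genes of the table, with 26 of its 44605 transcripts, and all had a mean of at least 1 FPKM and entered the test. FPKM, fragments per kilobase of transcript scaled to a common library size, is a level per length, so that levels of different genes can be compared per length.

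RNA was taken from RF/6A, a line of rhesus macaque cells labelled as choroidal endothelium, grown to confluence on porous inserts. Control cells received 50% human serum that had been heat-inactivated, which destroys complement activity (3 libraries). Treated cells received 50% normal human serum, in which complement can form the membrane attack complex (3 libraries). Both treatments lasted 4 hours. Human serum at this strength was thus common to all libraries, no group lacked serum, and active complement cannot be told apart from other heat-sensitive parts of serum. Whether the 3 replicates are separate cultures is not stated in the labels. The p-values therefore cover no more than library-to-library spread, which could be technical.

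In TNF signalling the bound receptor gathers TRADD, RIPK1 and TRAF2, and TRAF2 brings in the ubiquitin ligases BIRC2 and BIRC3. The ubiquitin chains they build on RIPK1 attract the kinases that release NF-kappaB, the transcription factor of inflammatory genes. A20, held in place by TNIP1 and TNIP2, trims or replaces these chains and so limits the signal, and CFLAR keeps the receptor from activating the death protease CASP8. TNFAIP3, BIRC3, TRAF1 and CFLAR are themselves among the known NF-kappaB targets, and in vascular endothelium A20 is known as a brake on inflammatory activation. These names are examples, picked with their values known, and not a full list. All of them were higher in normal serum, but their shared direction does not stand for NF-kappaB targets as a whole. TNIP1 and the TNF-induced gene TNFAIP2 were lower. Whether NF-kappaB targets changed as a set was not tested.

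The replicate 1 libraries of both treatments stood apart from the other 4 on the second principal component of log2(FPKM + 1), which held 13.2% of the variance, while the first, with 61.1%, separated the treatments. Results are therefore also given for replicates 2 and 3 alone. The depth read from the lowest values was between 14450000 and 17600000 fragments in replicates 2 and 3, where every low value was a whole number of fragments within 0.1. Only 47.4% and 46.4% were whole in the replicate 1 libraries, so their depth is approximate. Over replicates 2 and 3 this gives between 78.9 and 190.3 fragments per library for TRAF1, the thinnest of the 10 genes (counting error of 7.25% to 11.26%), and between 1512.7 and 4215.2 for TNFAIP3 (1.54% to 2.57%). The endothelial label had limited marker support. Of 11 endothelial markers 7 had a mean under 1 FPKM, and CDH5, the endothelial cadherin, was listed at 0 in the control. The summed endothelial markers ranged from 73.8 to 75.8 FPKM in the control and from 97.9 to 104.1 FPKM in normal serum. Most of this sum was 1 gene, ENG, with means of 61.2 and 74.2 FPKM. Of 11 mural and fibroblast markers 8 fell and 3 rose, with sums of 7783 to 8298 FPKM and 4526 to 4748 FPKM. Leukocyte markers summed to 14.4 to 19.0 FPKM and 13.5 to 16.2 FPKM, with PTPRC, the pan-leukocyte marker, at 0.0234 and 0.00532 FPKM. Epithelial markers summed to 6.37 to 7.55 FPKM and 3.18 to 4.02 FPKM, mostly from CDH1, with means of 5.54 and 2.03 FPKM. The part of these shifts in the results below was not tested, and in bulk RNA fewer cells of a type and less RNA per cell cannot be told apart.

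Of the 10 regulators 8 were higher in normal serum and 2 were lower (limma, adjusted p under 0.05 over 11818 genes). The treatment changed a large share of all genes: 54.0% were called, 27.8% higher and 26.1% lower. The rises were in the A20 gene, its partner TNIP2, both IAP genes, both TRAF genes, CFLAR and RIPK1, and the falls were in TNIP1 and TNFAIP2. The median log2 change of the 10 genes was 0.69, against 0.01 for all genes tested. A rise of at least 1.5-fold in mean FPKM was seen for 6 of 10, against 12.3% of all genes, and one of at least 2-fold for 2 of 10, against 4.51%. Since the 10 genes were chosen with earlier results of these data known, these contrasts are a description and not a test of the set. The libraries of the 2 treatments did not overlap for any of the 10 genes. That held for 62.6% of all genes (32.1% higher and 30.5% lower).

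**Figure D1:**
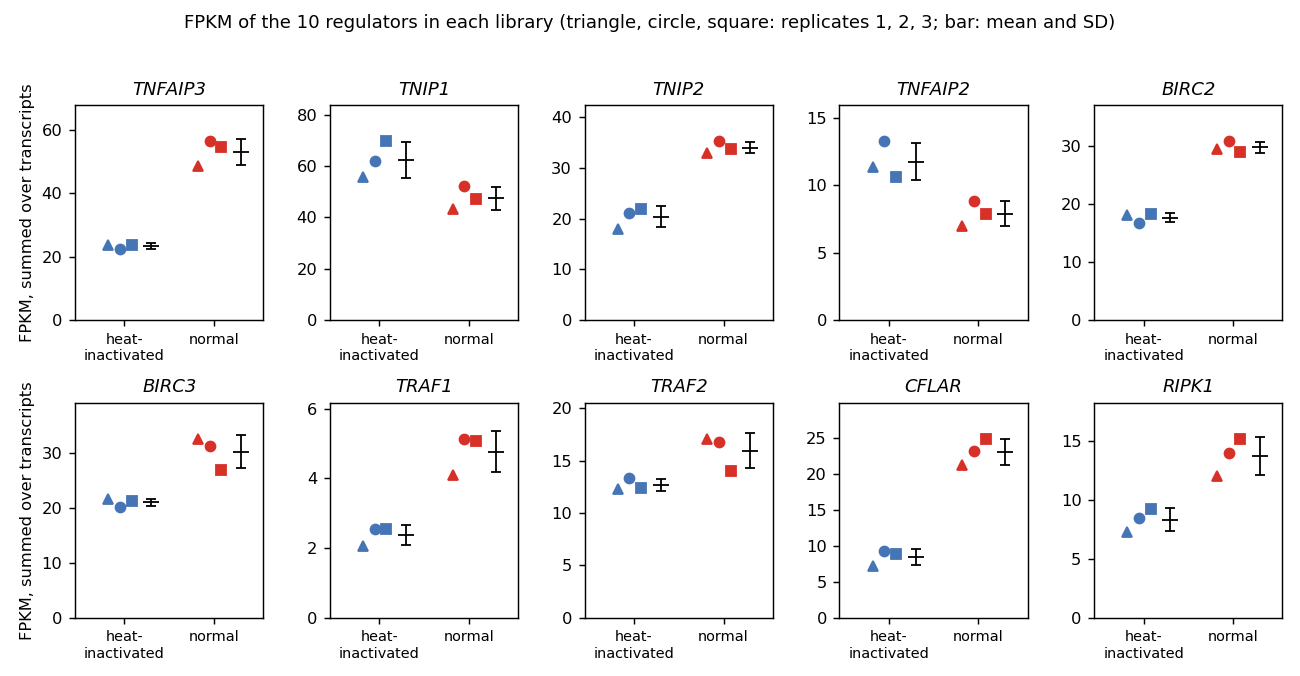
FPKM of each of the 10 genes, one panel per gene with its own axis from 0, in the 3 heat-inactivated serum libraries (blue) and the 3 normal serum libraries (red), with the mean and SD in black. In each panel the 2 treatments do not overlap. TNIP1 and TNFAIP2 are the genes with the normal serum libraries below the control.

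A20 itself stood at 23.8, 22.4 and 23.8 FPKM in heat-inactivated serum replicates 1, 2 and 3, and at 48.6, 56.5 and 54.5 FPKM in normal serum replicates 1, 2 and 3. The control libraries thus lay close together and every normal serum library was above 45 FPKM, with replicate 1 the lowest. The TNFAIP3 change was 1.15 ± 0.0733 (SE) on the log2(FPKM + 1) scale (limma, adjusted p = 2.81e-05), a 2.28-fold rise in mean FPKM that lay at percentile 97.2 of all changes. Its partners moved in opposite directions. TNIP1 encodes a ubiquitin-binding adaptor of A20 and was the most abundant of the 10 genes in the control, at 55.9, 62.0 and 69.8 FPKM. In normal serum it was at 43.1, 52.1 and 47.2 FPKM, so that the highest treated library came close to the lowest control one. The TNIP1 mean fell to 0.760 of the control mean (log2 -0.39 ± 0.101, limma adjusted p = 0.0142). TNIP2, a second adaptor with the same role, went from 18.0, 21.1 and 21.9 FPKM to 33.0, 35.3 and 33.8 FPKM. This 1.67-fold rise (log2 0.72 ± 0.0841, limma adjusted p = 3.90e-04) left a gap of over 10 FPKM between the treatments.

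TNFAIP2, a TNF-induced gene whose product is linked to membrane protrusions, was lower despite its name, at 11.4, 13.3 and 10.6 FPKM in the control and 6.98, 8.83 and 7.84 FPKM in normal serum. Replicate 2 was the highest library of each treatment. The mean fell to 0.671 of the control (log2 -0.52 ± 0.109, limma adjusted p = 0.00559).

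BIRC2 and BIRC3 encode the closely related ligases cIAP1 and cIAP2 and lie next to each other in RefSeq (T2T-MMU8v2.0), so fragments from stretches they share may have been divided between them by the authors' software. BIRC2 was at 18.1, 16.7 and 18.2 FPKM in the control and 29.4, 30.8 and 29.0 FPKM in normal serum. BIRC3 was at 21.5, 20.2 and 21.2 FPKM and at 32.5, 31.2 and 26.8 FPKM. Both were tight in the control, and in normal serum BIRC3 replicate 3 lay below the other 2. BIRC2 rose 1.69-fold (log2 0.72 ± 0.0634, limma adjusted p = 1.11e-04) and BIRC3 1.44-fold (log2 0.50 ± 0.0827, limma adjusted p = 0.00188).

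TRAF1, an adaptor that lacks the ligase domain of its relatives and pairs with TRAF2, was the lowest of the 10 genes in both treatments. It went from 2.06, 2.54 and 2.56 FPKM to 4.09, 5.13 and 5.08 FPKM, with replicate 1 the lowest of each treatment. The fold in mean FPKM was 2.00, and the log2 change of 0.77 ± 0.115 (limma adjusted p = 0.00122) understates it because TRAF1 is low. TRAF2, which carries BIRC2 and BIRC3 to the receptor, was at 12.3, 13.3 and 12.4 FPKM in the control and 17.1, 16.8 and 14.0 FPKM in normal serum, where replicate 3 was close to the control. Its 1.26-fold rise (log2 0.31 ± 0.0883, limma adjusted p = 0.0214) was the smallest of the 10 changes. The TRAF2 call was fragile: limma gave log2 0.24 and adjusted p = 0.117 on replicates 2 and 3, log2 0.17 and adjusted p = 0.245 with libraries rescaled to one total FPKM, and adjusted p = 0.0526 on its highest transcript. Leaving out 1 library also ended it for 4 of 6 libraries: control replicates 1 and 3 (adjusted p of 0.0588 and 0.0637) and normal serum replicates 1 and 2 (adjusted p of 0.0629 and 0.0721).

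The largest change of the 10 was in CFLAR, the inhibitor of CASP8. Its summed FPKM was 7.20, 9.33 and 8.88 in the control and 21.2, 23.2 and 24.9 in normal serum, more than 10 FPKM apart. It rose 2.73-fold (log2 1.35 ± 0.106, limma adjusted p = 6.42e-05), at percentile 98.0 of all changes. RIPK1, the kinase on which the ubiquitin chains are built, went from 7.29, 8.43 and 9.25 FPKM to 12.0, 14.0 and 15.2 FPKM. Its fold was 1.65 (log2 0.66 ± 0.111, limma adjusted p = 0.00209).

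**Figure D2:**
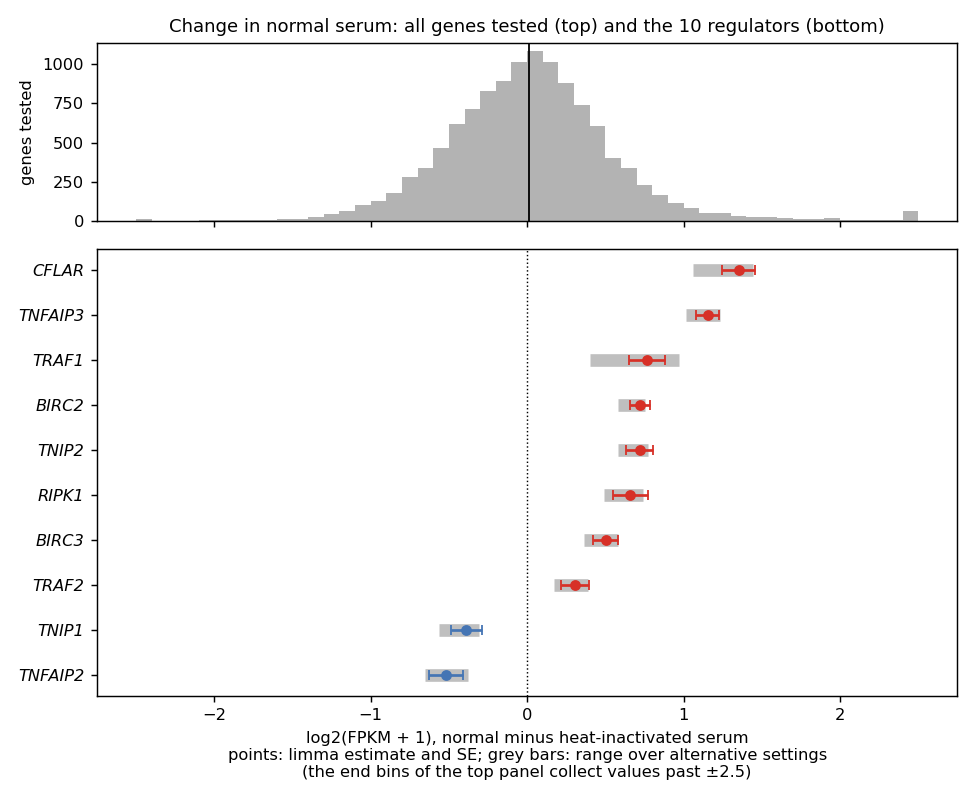
Top: number of tested genes by their difference in log2(FPKM + 1), normal minus heat-inactivated serum, with the median of 0.01 as a line. Bottom: the same difference for each of the 10 genes (point and SE) with the range over the alternative settings in grey. CFLAR (1.35) and TNFAIP3 (1.15) lie farthest to the right, and none of the grey bars crosses 0.

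Within replicates 2 and 3 alone 7 of the 10 genes were called higher and 2 lower, TRAF2 being the exception. Of all 11819 genes tested there 47% were called, 2995 higher and 2560 lower. The folds in mean FPKM there were 2.40 for TNFAIP3, 2.64 for CFLAR and 0.754 for TNIP1. The single pair of replicate 1 libraries, which allows no test, gave 2.04, 2.95 and 0.772. Across the 10 genes the fold of that pair and the fold of replicates 2 and 3 were on the same side of 1. Rescaling all libraries to the same total FPKM moved the median of all genes to -0.12 and the share of calls that were higher from 51.6% to 34.7%. The log2 changes there were 1.01 for TNFAIP3, 1.22 for CFLAR, 0.17 for TRAF2 and -0.53 for TNIP1. Relative to that median they were 1.13, 1.34, 0.29 and -0.41. These lie close to the main values because subtracting the median largely undoes the rescaling.

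The order of the genes by FPKM differed between the treatments. In heat-inactivated serum TNIP1 led at 62.6 ± 6.96 FPKM (SD, n = 3), followed by TNFAIP3 (23.3 ± 0.832), BIRC3 (21.0 ± 0.693), TNIP2 (20.3 ± 2.1), BIRC2 (17.7 ± 0.822), TRAF2 (12.7 ± 0.562), TNFAIP2 (11.7 ± 1.36), CFLAR (8.47 ± 1.12), RIPK1 (8.32 ± 0.983) and TRAF1 (2.38 ± 0.285). Neighbours whose libraries overlapped there were BIRC3 with TNIP2, TNIP2 with BIRC2, TRAF2 with TNFAIP2, and CFLAR with RIPK1. In normal serum TNFAIP3 (53.2 ± 4.11 FPKM) and TNIP1 (47.5 ± 4.51 FPKM) shared the top with overlapping libraries. TNIP2 (34.0 ± 1.15 FPKM) came next, then BIRC3 (30.2 ± 2.97) and BIRC2 (29.8 ± 0.959), which overlapped. CFLAR (23.1 ± 1.84) followed, now above TRAF2 and TNFAIP2. TRAF2 (16.0 ± 1.67) and RIPK1 (13.7 ± 1.58) came after it and overlapped with each other. TNFAIP2 (7.88 ± 0.925 FPKM) and TRAF1 (4.77 ± 0.583 FPKM) were last.

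Ratios of 2 genes within a library do not depend on how libraries are scaled, and show whether partners changed unequally. A20 transcripts per TNIP1 transcript went from 0.426, 0.361 and 0.341 in the control to 1.13, 1.08 and 1.15 in normal serum. TNIP1 per TNIP2 went the other way, from 3.11, 2.93 and 3.18 to 1.31, 1.48 and 1.40. These are the widest shifts of the 6 ratios compared, 1.58 and -1.14 on the log2 scale, along with CFLAR over CASP8. CFLAR per RIPK1 was 0.987, 1.11 and 0.960 in the control and 1.76, 1.66 and 1.64 in normal serum. CFLAR per CASP8, its target, was 0.561, 0.684 and 0.610 and then 1.61, 1.36 and 1.33, a log2 shift of 1.21. CASP8 itself was at 13.7 ± 0.871 and 16.3 ± 2.84 FPKM (SD, n = 3) and did not pass the threshold (log2 0.23, limma adjusted p = 0.157). It was called higher, however, on replicates 2 and 3 alone (log2 0.32, limma adjusted p = 0.0243), without normal serum replicate 1 (log2 0.37, limma adjusted p = 0.0123), and narrowly when replicate 1 was fitted as a term. TRAF1 per TRAF2 had means of 0.188 ± 0.0193 and 0.303 ± 0.0611 (SD, n = 3). BIRC3 per BIRC2 moved least, from 1.19 ± 0.0221 to 1.01 ± 0.0890, with a log2 shift of -0.23. None of the 6 ratios had overlapping treatments. For TNFAIP3 over TNIP1 and TNIP1 over TNIP2 this had to be so, since each pairs a riser with a faller that both separate by treatment. The share of other gene pairs that separate was not computed. The two-sided exact permutation p was 0.1 for each, also after Benjamini-Hochberg adjustment, which is the smallest that 3 against 3 libraries can give.

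**Figure D3:**
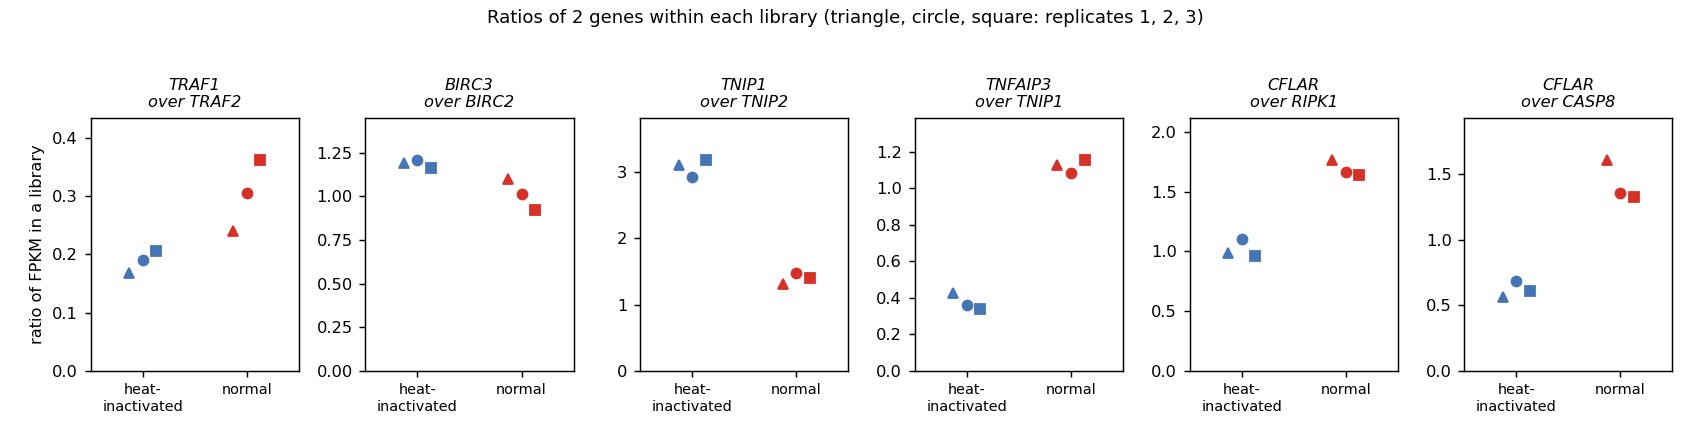
Ratio of the FPKM of 2 genes in each library, one panel per pair with its own axis from 0, for heat-inactivated serum (blue) and normal serum (red). TNFAIP3 over TNIP1 lies between 0.341 and 0.426 in the control and between 1.08 and 1.15 in normal serum, and BIRC3 over BIRC2 shows the smallest shift.

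Of the 10 genes, CFLAR, TNIP1, TNIP2 and TRAF2 have more than 1 transcript in the table. Their division among transcripts is an estimate by the authors' software and was not tested here. CFLAR has 10 transcripts, named by identifier only, so that the long and short forms of its protein were not told apart. The most abundant, of 1979 bases, went from 4.06 ± 0.571 to 11.3 ± 0.517 FPKM (SD, n = 3) and made up 58.3%, 36.8% and 51.2% of the gene in the control and 55.7%, 46.4% and 45.3% in normal serum. Its share thus overlapped between the treatments while its level was higher in every normal serum library. A transcript of 961 bases was uneven among libraries, at 0.288, 2.96 and 2.04 FPKM in the control and 4.10, 10.1 and 7.10 FPKM in normal serum. The authors' deposited table gives log2 changes of 1.47 (q = 2.23e-04) and 2.01 (q = 0.0751) for these 2 transcripts.

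The largest drop in FPKM within TNIP1 was in its main transcript of 2846 bases, at 43.2 ± 3.40 FPKM in the control and 29.7 ± 3.58 FPKM in normal serum. The second, of 2663 bases, was at 15.9 ± 3.14 and 17.3 ± 5.04 FPKM. A minor one of 2785 bases was at 3.38 ± 0.877 and 0.502 ± 0.449 FPKM. In the same order the authors' deposited table lists log2 changes of -0.54 (q = 6.23e-04), 0.12 (q = 0.728) and -2.75 (q = 0.120), so the minor transcript had the largest fold difference but missed the q-value threshold. The second transcript made up 23.1%, 25.3% and 27.5% of TNIP1 in the control and 37.5%, 43.8% and 27.4% in normal serum, so the treatments overlapped through normal serum replicate 3. Both TNIP2 transcripts were higher, that of 1821 bases at 17.6 ± 2.37 and 27.4 ± 1.34 FPKM and that of 1538 bases at 2.70 ± 0.301 and 6.57 ± 2.49 FPKM. In TRAF2 a transcript of 2266 bases held 95.8% ± 3.25 and 93.9% ± 2.41 of the gene, and 1 of its 5 transcripts was listed at 0 in all libraries. Of the 26 transcripts of the 10 genes, 18 had a completed test in the authors' deposited table. Among these 11 had a q-value under 0.05, 9 higher and 2 lower, and each of the 10 genes has at least 1 of them. The share of all transcripts with such a q-value was not computed, so this count has no background beside it.

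**Figure D4:**
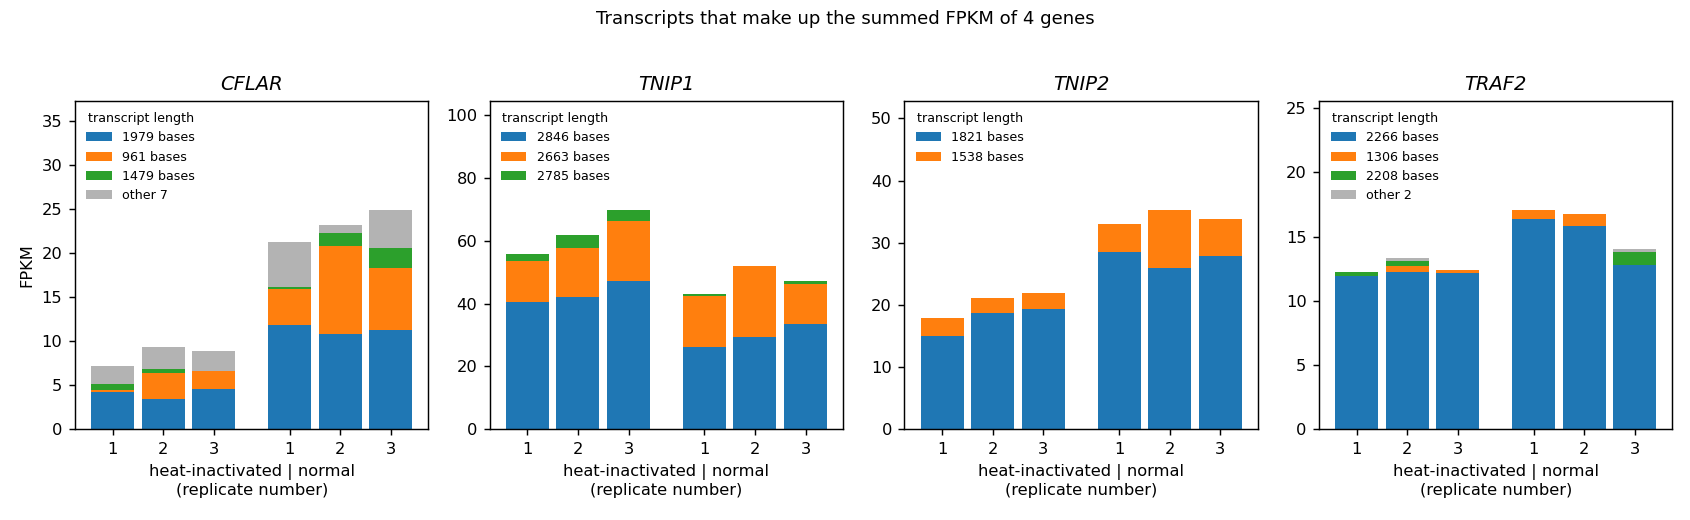
FPKM of the transcripts of CFLAR, TNIP1, TNIP2 and TRAF2, stacked in each library (replicates 1 to 3 of heat-inactivated serum on the left and of normal serum on the right of each panel), with the transcripts named by their length. The 1979-base CFLAR transcript is the largest piece of the CFLAR bar in every library, and the 2846-base TNIP1 transcript is lower in each normal serum library.

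The genes around the 10 regulators were counted in lists by role. Beside these counts, 27.8% of all genes tested were higher and 26.1% lower. With libraries rescaled to one total FPKM, 1951 of 11834 genes were higher and 3671 lower. No list was tested against these shares. Among receptors, adaptors and kinases of the TNF receptor complex, 17 of 20 were tested: 2 rose, 3 fell and 12 missed the threshold, at a median log2 change of 0.03. TNF itself was near 0 in both treatments, at 0.0699 and 0.0913 FPKM. TNFRSF1B, the inducible TNF receptor, fell from 10.8 ± 0.881 to 2.95 ± 0.316 FPKM (limma, adjusted p = 2.29e-05), and MAP3K5, a stress kinase, from 2.25 ± 0.153 to 0.877 ± 0.0738 FPKM (limma, adjusted p = 8.16e-04). FADD, which links the receptor to CASP8, rose 1.33-fold, a call that ended on its highest transcript (log2 0.26, limma adjusted p = 0.208). CHUK, an IkappaB kinase subunit, rose 1.27-fold and TNFRSF1A, the main TNF receptor, fell to 0.872 of its control mean (limma adjusted p = 0.0494), both named after their values were seen. The TNFRSF1A call ended under 9 of 20 alternatives, 5 of them the omission of any 1 library other than normal serum replicate 1 (limma, adjusted p of 0.0611 to 0.146). With libraries rescaled to one total FPKM the CHUK call ended (log2 0.19 against 0.33, limma adjusted p = 0.188), the list had 1 higher and 5 lower, and its median was -0.10, against -0.12 for all genes.

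Ubiquitin enzymes of the complex had 7 of 14 higher and 2 lower, against 27.8% and 26.1% of all genes tested. CYLD, a deubiquitinase that removes chains as A20 does, rose 1.58-fold (4.60 ± 0.440 to 7.26 ± 0.181 FPKM), and the conjugating enzyme genes UBE2L3 and UBE2D3 rose 1.49-fold and 1.33-fold. RBCK1, a subunit of the linear ubiquitin ligase, and USP4, another deubiquitinase, were the 2 that fell, to 0.838 and 0.817 of the control, named after their values were seen. USP4 lost its call without heat-inactivated serum replicate 3 (limma, adjusted p = 0.0558) or normal serum replicate 2 (limma, adjusted p = 0.0514). The count of higher genes was 4 after rescaling to the same total FPKM, where UBE2D3 missed the threshold (limma, adjusted p = 0.0501). On its highest transcript UBE2D3 had a log2 change of 0.16, against 0.41, and was not called (limma, adjusted p = 0.172). UBE2N was listed at 0 in all libraries, although every cell uses it. Of 7 tested A20 editing partners and A20-like proteases, TNIP3, a further A20-binding adaptor, rose 1.92-fold (from 4.87, 5.47 and 5.36 FPKM to 7.98, 11.1 and 11.1 FPKM), ZRANB1 rose 1.19-fold and OTUD7B fell to 0.757 of the control. The ZRANB1 and OTUD7B calls ended under 9 and 7 of 20 alternatives, replicates 2 and 3 alone among them (limma, adjusted p of 0.0850 and 0.0910), which left TNIP3 as the only gene of the list called there.

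Among other IAP genes, their antagonists and partners, HTRA2, a mitochondrial IAP antagonist, rose 1.30-fold (10.4 ± 0.771 to 13.5 ± 0.737 FPKM; limma, adjusted p = 0.00734). CASP9, the initiator caspase of the mitochondrial pathway, was higher (log2 0.30) and BIRC6, a very large IAP, lower (log2 -0.25), both named after their values were seen. Replicates 2 and 3 alone gave no call for CASP9 or BIRC6 (limma, adjusted p of 0.0635 and 0.0734). Rescaling to one total FPKM ended the calls of CASP9 and HTRA2 (limma, adjusted p of 0.233 and 0.159), as did the use of each gene's highest transcript (limma, adjusted p of 0.235 and 0.0559). XIAP, the IAP that binds caspases most directly and chosen after its values were seen, was at 2.41 ± 0.445 and 3.03 ± 0.665 FPKM (log2 0.24, limma adjusted p = 0.238), and was called higher on replicates 2 and 3 alone (log2 0.48, limma adjusted p = 0.0284).

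Other TRAF genes and TRAF-binding regulators had 1 of 14 higher and 5 lower, against 27.8% and 26.1% of all genes tested. Their median log2 change was -0.13. TRAF4 was the one that rose, from 30.8 ± 1.88 to 43.9 ± 1.38 FPKM. IKBKE, a kinase of the interferon pathway that TRAF proteins reach, fell to 0.677 of the control and TRAFD1 to 0.823. TRAF5, AZI2 and TIFA, named after their values were seen, were the other 3 that were lower, and each lost its call under 5 or 6 of the alternatives tried. TRAFD1 and TRAF5 were not called within replicates 2 and 3 alone (adjusted p = 0.0576 and 0.0925), which left 3 lower.

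**Figure D5:**
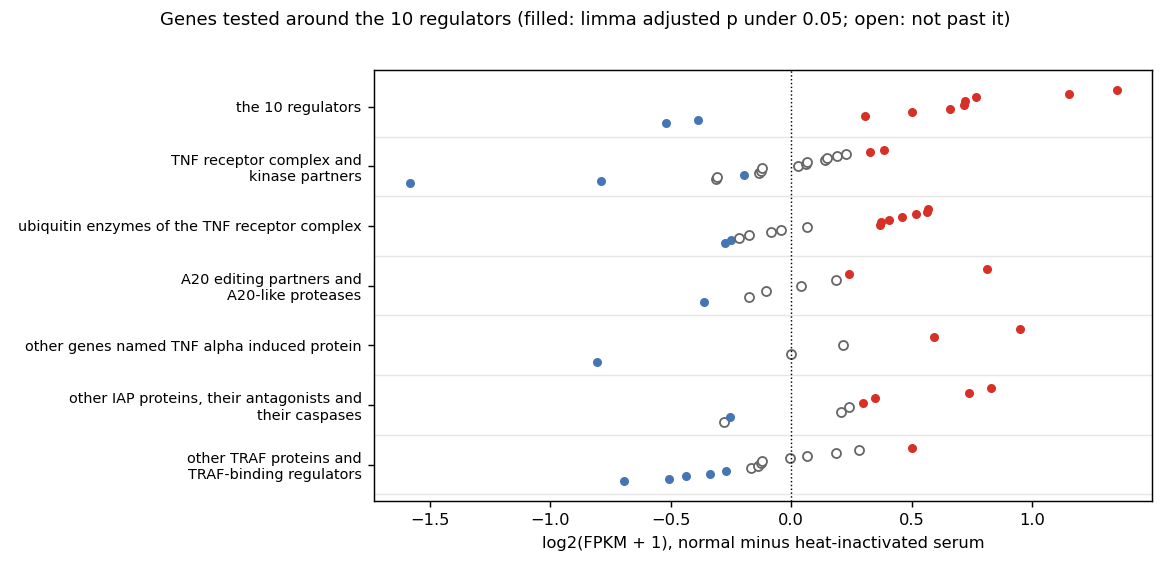
Difference in log2(FPKM + 1), normal minus heat-inactivated serum, of each tested gene, one row per list, with filled points for genes called higher (red) or lower (blue) and open points for genes not past the threshold. All 10 regulators are filled, 8 of them to the right of 0. In the row of other TRAF genes 1 filled point lies to the right and 5 to the left.

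The genes whose pattern over the 6 libraries was most like that of the largest riser and of the largest faller were found by Pearson correlation of log2(FPKM + 1), given as a description since the libraries share the treatment contrast. For CFLAR they were NUP62 (r = 0.9996), RNF214 (r = 0.9987) and CYTH1 (r = 0.9987), among 169 named genes with r of at least 0.99. The measure ignores the size of a change: NUP62 went only from 48.1, 49.3 and 49.3 FPKM to 54.0, 54.5 and 54.9 FPKM. For TNFAIP2 they were ABHD10 (r = 0.9959), GANC (r = 0.9949) and RASSF3 (r = 0.9909), and only 5 named genes reached 0.99. Like TNFAIP2, each of these 3 had its highest value of each treatment in replicate 2, which follows largely from choosing them by correlation.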

How the data were processed

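Polyadenylated RNA of 6 libraries was analysed from 1 deposited table of FPKM values per transcript. The submitters' processing notes name TopHat2 2.0.7 with Cufflinks and Cuffdiff, both 2.1.1, and no genome build is given. The table also holds log2 fold changes, p-values and q-values that the authors computed per transcript.

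FPKM values were summed over transcripts of a symbol, 256 of 7008 identifiers without a symbol first receiving one from a table of gene names. Genes averaging 1 FPKM or more over the libraries entered limma 3.58.1 (R 4.3.3) as log2(FPKM + 1) (trended empirical Bayes, Benjamini-Hochberg over all 11818 genes, adjusted p under 0.05). Folds are ratios of mean FPKM and understated on the log2 scale for low genes. FPKM is not a count, so no count model was used. Depth was read from single-transcript genes under 0.3 FPKM. The percentages given beside fragment numbers cover counting error only, while SDs and SEs are over libraries.

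The members, the gene lists and the tests were chosen with earlier results of these data known. Of 79 genes in the lists 75 were found. Named were the 10 members, in each list the 3 called genes lowest in adjusted p (where none was called, the 2 highest by mean FPKM), CASP8, and the 3 genes most like the largest riser and faller. Other names carry a mark that their values were known when they were picked, except marker genes, TNF, UBE2N and those counted in a list. Some genes that the rule takes are not reported here. Tested on 5 simulated sets of 11818 genes with 200 changed, the test found 16.0% of the genes given a 1.25-fold change, 60.4% of those given 1.5-fold, 85.2% for 2-fold and 97.6% for 4-fold, with 3.53% of calls false. Far fewer genes changed in these sets than the 54.0% called in the data. The simulated spread was also independent between genes, without the shift of the replicate 1 libraries. The rates therefore do not carry over directly to this comparison. Isoforms with shared sequence and overlapping genes were not told apart, and the library kit named in the labels does not mark strand. Promoter and protein sequences were not used here.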

Additional observations from a re-analysis of the deposited data

How the results depend on the processing

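The direction of each member's change held in all 199 values recomputed over the alternatives (pseudocount, filter, scaling, variance model, summing of transcripts, replicate terms and libraries), and 192 of these values were on the same side of the threshold. The 7 others concern TRAF2. Its log2 change was 0.17 with every library brought to one total FPKM (adjusted p = 0.245), 0.28 with the highest transcript standing for the gene (adjusted p = 0.0526) and 0.24 in replicates 2 and 3 only (adjusted p = 0.117). When a library was left out it lay between 0.26 and 0.39, with the call lost in 4 of 6 cases. The cause was not tested. TRAF1 could not be tested with a mean of at least 5 FPKM, since it fell under that filter. The log2 shift of the TNFAIP3 to TNIP1 ratio was 1.73 with the highest transcript standing for the gene, against 1.58, since that setting drops the second TNIP1 transcript. The number of genes called ranged from 5166 to 7063. With replicate number as a block 6775 genes (57.3%) were called, and the members still counted 8 higher and 2 lower. Whether the replicate numbers pair the samples is not known. The deviations of same-numbered libraries correlated at 0.1929 for replicate 1, 0.0333 for replicate 2 and 0.0059 for replicate 3. Only the replicate 1 libraries correlated best with their own number, and 3 libraries per treatment are too few to decide on pairing. The 655 values recomputed for 33 other pathway genes cover only genes called in the main test, with CASP8 and XIAP added. Of these values 63 lost a call, 4 gained one and 0 changed direction. Some listed genes that were not called did change direction, TNFAIP8 and MAP3K14 among them, each under 5 of 20 settings. Depth limits TRAF1 most, with under 200 fragments in each of the 4 libraries where it could be read.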

Other observations

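Genes that share the name "TNF alpha induced protein" with TNFAIP3 and TNFAIP2 but not their roles also went both ways. TNFAIP1, which encodes an adaptor of a ubiquitin ligase, was at 18.6, 16.1 and 15.3 FPKM in heat-inactivated serum and 32.8, 32.1 and 34.2 FPKM in normal serum, a 1.98-fold rise (limma, adjusted p = 1.01e-04). TNFAIP6, a secreted hyaluronan-binding protein, was the most abundant of these in the control, at 47.6, 44.7 and 48.5 FPKM, and fell to 26.2, 29.7 and 23.6 FPKM (limma, adjusted p = 3.03e-04). TNFAIP8L3 rose 1.58-fold (limma, adjusted p = 0.00244). Of 5 such genes tested 2 were thus higher, 1 was lower and 2 did not pass the threshold. Of all genes tested 27.8% were higher and 26.1% lower.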
